A study of Homo sapiens with 30 samples.

Results

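The messenger RNAs of 32 genes, factors of ribosome biogenesis together with enzymes that are textbook targets of MYC, were measured in 2 lymphoma cell lines treated with YK-S or YK-R. The genes were taken from a fixed list, and each was read by its probe of highest mean log2 value. Of the 32, 29 had a probe among the 20046 named genes of the arrays, and 28 were above background often enough to be tested. WDR43, GNL3 and EBNA1BP2 were not analysed here. The only probe of NPM1, the abundant nucleolar chaperone nucleophosmin, is annotated to a single transcript and was above background on 1 of the 12 TMD8 arrays and 1 of the 18 U2932 arrays. Its log2 values ran from 4.21 to 4.71 in TMD8 and from 4.17 to 4.83 in U2932. Those are background values on nearly all arrays, so the level of NPM1 could not be read.

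TMD8 and U2932 are human lines of diffuse large B cell lymphoma, and the study's title concerns small-molecule inhibitors of ETS transcription factors. YK-S and YK-R are taken here as the mirror-image forms of such an inhibitor, of which S is known as the active one; the labels do not spell this out. TMD8 cells received YK-S or YK-R for 4 h or 8 h and have no vehicle group here, whereas U2932 cells received YK-S, YK-R or the solvent DMSO for the same times. This gave 10 groups of 3 Illumina bead arrays, 30 in all, with no dose stated. The labels do not state whether the replicates are separate cultures, and p-values then measure only the spread between these samples, which may be technical.

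Ribosomes are built in the nucleolus, where RNA polymerase I makes one long precursor RNA and assembly factors fold, cut and pack it into the small and the large subunit before export to the cytoplasm. MYC raises the output of all these steps, and ribosome production is often high in fast-growing lymphomas. ODC1 and SRM, enzymes of polyamine synthesis, and CAD, which starts pyrimidine synthesis, are long-known MYC targets. ETS factors bind a short motif close to the start of many housekeeping genes, ribosome factors included.

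The deposited tables carry sample names for U2932 that do not match each other. The array that a name holds was the same in the deposited signal table and in the deposited log2 value table for 12 of 12 TMD8 arrays, but for 0 of 18 U2932 arrays, 13 of which lie in another group. U2932 results are therefore given by the signal table's names, and for a part of the values also by the value table's names. Mean signal was 419.6 to 494.1 intensity units on TMD8 arrays and 85.4 to 340.9 on U2932 arrays, and 8 U2932 arrays were dim, with a mean under 200. By the signal table's names 7 of the dim arrays are 4 h samples, so time and brightness cannot be told apart in U2932. At 4 h all DMSO and YK-R arrays are dim, whereas YK-S replicates 2 and 3 are not (304.9 and 325.8). Brightness thus also differs between YK-S and the other 4 h groups by these names, and its part was not tested. Of 14 B cell markers, 13 were above background on every TMD8 array and 10 on every U2932 array. CD79A, CD79B and MS4A1 were among them in both lines, whereas PAX5 was so on 8 of 12 TMD8 and 0 of 18 U2932 arrays. Of 9 T cell markers 1 was above background on every TMD8 array and 0 on every U2932 array, and CD3D was so on 0 of 12 and 2 of 18 arrays. Of 8 myeloid markers 3 and 0 were so on every array of TMD8 and U2932, and of 9 stromal and epithelial markers 2 and 2. Among the latter EPCAM was above background on 11 of 12 and 18 of 18 arrays, CDH1 on 12 of 12 and 0 of 18, KRT8 on 2 and 1, and KRT18 on 1 and 1. Their part in the results was not tested.

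**Figure D1:**
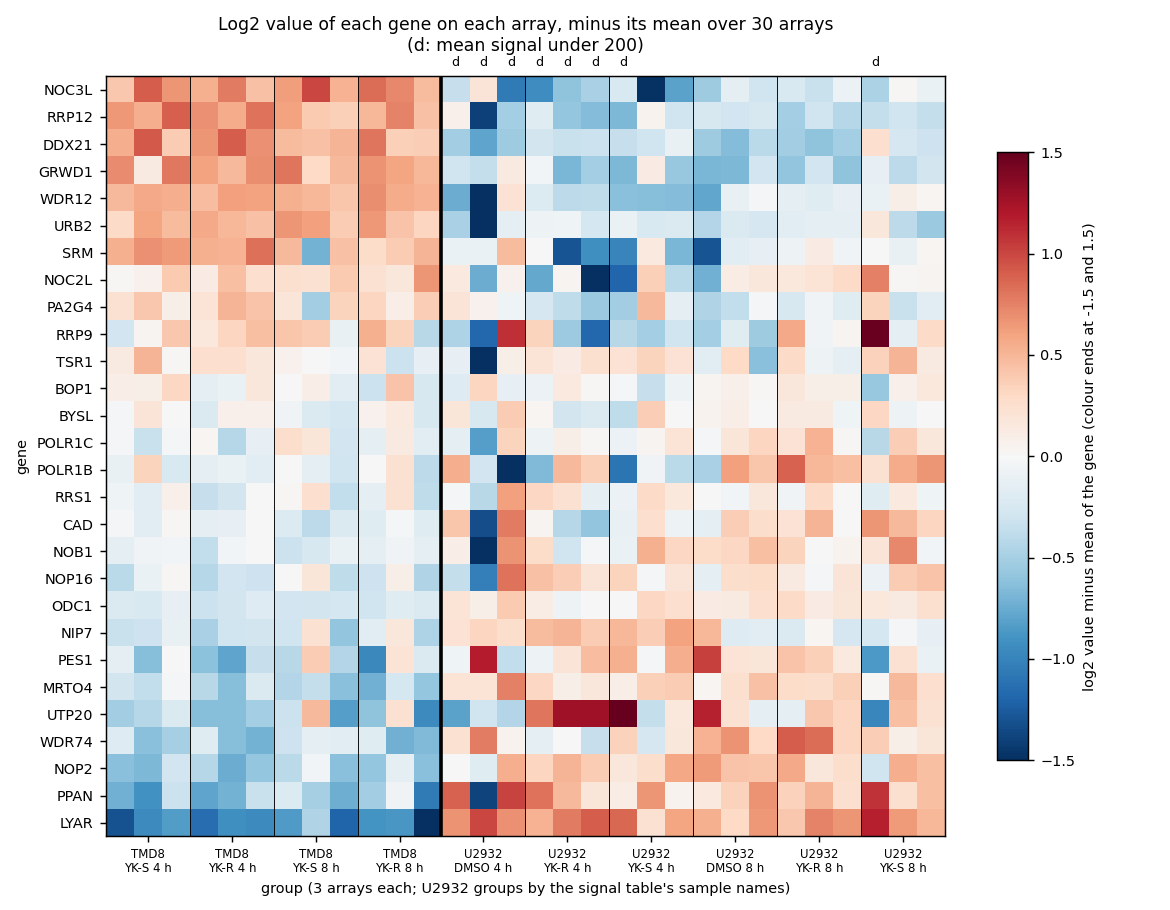
Colour gives the log2 value of each of the 28 tested genes (rows) on each of the 30 arrays (columns), minus that gene's mean over all arrays, with U2932 columns grouped by the signal table's names and d marking the 8 dim arrays. Rows are ordered by the difference between lines. DDX21, GRWD1, RRP12 and NOC3L are higher on every TMD8 array than on any U2932 array, LYAR is the reverse on this quantile-normalized scale (median scaling turned it in the YK-R comparison at 4 h), and in TMD8 only CAD at 8 h (by -0.14, and 0.081 under median scaling) has all 3 YK-S arrays to one side of the 3 YK-R arrays.

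In TMD8, no member passed the test between the mirror-image forms. With limma, 0 of 28 genes passed an adjusted p of 0.05 at 4 h and 0 of 28 at 8 h, with 0 and 0 at an unadjusted p under 0.05. Across all 20625 features tested, 0% passed at 4 h and 0.063% at 8 h, with 364 and 1288 features at an unadjusted p under 0.05. The median difference, YK-S minus YK-R, was 0.05 over the members and 0.01 over all features at 4 h, and 0.04 and 0.01 at 8 h. At 4 h, 17 of 28 members lay above 0 and at 8 h 15 did. The arrays of the forms did not overlap for 0 of 28 members at 4 h (7.69% of all features) and 1 of 28 at 8 h (8.21% of all features). Single differences ran from -0.26 for RRP9 to 0.32 for PES1 at 4 h, and from -0.31 for SRM to 0.32 for WDR74 at 8 h. All 28 of the 95% intervals lay within -1 and 1 at both times, so a difference of 1 on this log2 scale lies outside each of them. The scale carries an offset of 16, so a 2-fold change in RNA is less than 1 on it for dim members. For UTP20 and RRP9, which averaged 5.25 and 5.73 in TMD8, the intervals therefore do not settle a 2-fold RNA difference. For 16 members at 4 h and 19 at 8 h the interval also lay within -0.5 and 0.5. On simulated data the same test recovered 80% of features that differed by 1 on the log2 scale at 8 h in TMD8.

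POLR1B and POLR1C are subunits of RNA polymerase I, the latter shared with RNA polymerase III. POLR1B read 6.08, 6.52 and 5.96 in TMD8 under YK-S at 4 h and 6.05, 6.09 and 6.04 under YK-R. After 8 h its values were 6.19, 6.04 and 5.89 under YK-S and 6.18, 6.42 and 5.80 under YK-R. The forms overlapped at both times, with differences of 0.13 on the log2 scale (SE 0.18, adjusted p = 1) at 4 h and -0.09 at 8 h. POLR1C gave 9.95, 9.66 and 9.97 under YK-S and 10.02, 9.56 and 9.86 under YK-R at 4 h. At 8 h it gave 10.25, 10.17 and 9.69 under YK-S and 9.84, 10.12 and 9.83 under YK-R. Arrays of both forms overlapped again, with 95% intervals of -0.33 to 0.42 at 4 h and -0.27 to 0.48 at 8 h.

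The factors of the large subunit include NOP2, an RNA methyltransferase, and PES1, BOP1 and WDR12, which form one complex needed to mature its RNAs. NOP16, a nucleolar protein of the large subunit pathway, read 8.77, 9.07 and 9.19 under YK-S and 8.74, 8.88 and 8.86 under YK-R at 4 h in TMD8. At 8 h it read 9.18, 9.36 and 8.79 under YK-S and 8.86, 9.26 and 8.72 under YK-R. The arrays overlapped at both times, and YK-S minus YK-R was 0.18 at 4 h and 0.16 at 8 h. Of the PES1 complex, PES1 differed by 0.32 on the log2 scale (SE 0.29, adjusted p = 1) at 4 h, BOP1 by 0.19 and WDR12 by -0.03. In the small subunit pathway, RRP9, a protein bound to the U3 RNA that guides the first cuts, differed by -0.26 on the log2 scale (SE 0.24, adjusted p = 1) at 4 h and by 0.08 at 8 h. UTP20, of the same early particle, differed by 0.20 and 0.23. None of these passed the test.

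Of the MYC target enzymes in TMD8, ODC1 read 11.98, 11.97 and 12.07 under YK-S and 11.88, 11.93 and 12.004 under YK-R at 4 h. At 8 h the values were 11.92, 11.92 and 11.93 under YK-S and 11.90, 12.02 and 11.98 under YK-R. All 12 values of ODC1 thus lay between 11.88 and 12.07, and the forms overlapped. CAD read 7.93, 7.79 and 7.97 under YK-S and 7.81, 7.84 and 7.97 under YK-R at 4 h. At 8 h CAD read 7.75, 7.56 and 7.74 under YK-S and 7.77, 7.92 and 7.78 under YK-R. Here the 3 YK-S arrays at 8 h all lay below the 3 YK-R arrays, for this member alone among the 28. The difference was -0.14 on the log2 scale (SE 0.11, adjusted p = 0.988), and median scaling of the arrays turned it to 0.081, while it moved the median of all features by 0.15. SRM read 9.85, 10 and 9.96 under YK-S and 9.85, 9.84 and 10.14 under YK-R at 4 h. At 8 h SRM read 9.80, 8.61 and 9.76 under YK-S and 9.59, 9.69 and 9.83 under YK-R. One array, YK-S at 8 h, replicate 2, was low for SRM, and the forms overlapped (-0.31, SE 0.25).

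**Figure D2:**
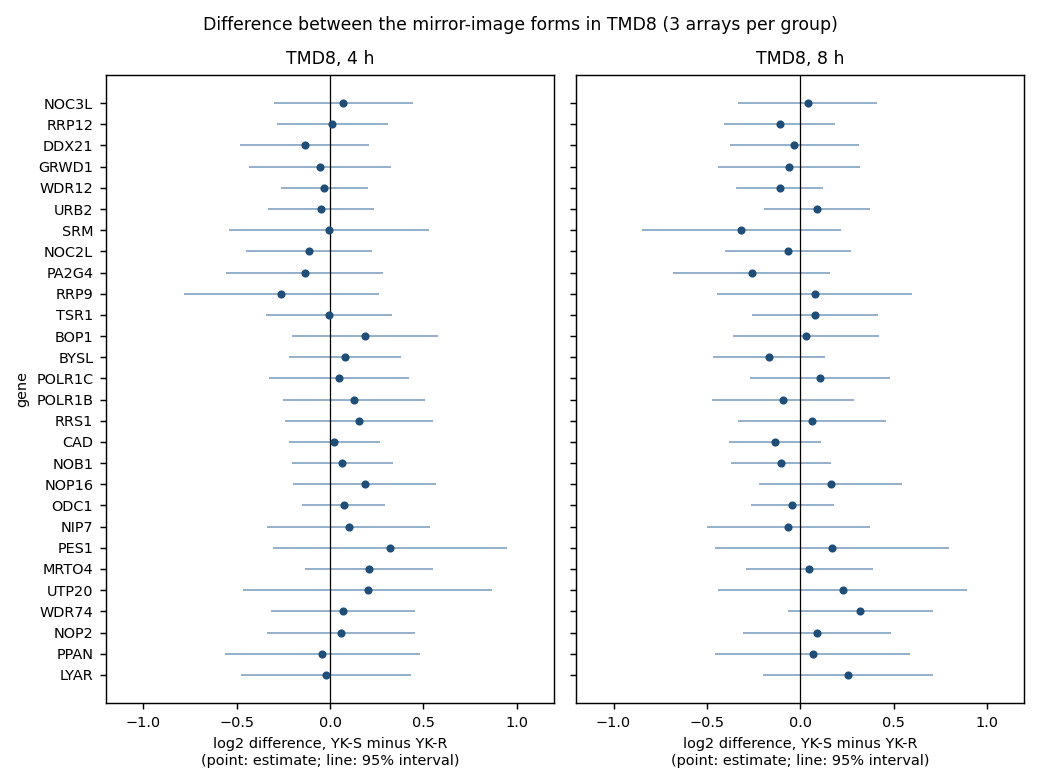
Points give the log2 difference, YK-S minus YK-R, of each of the 28 genes in TMD8 at 4 h (left) and 8 h (right), and lines the 95% interval from limma (3 arrays per group). Every interval lies within -1 and 1, and 16 at 4 h and 19 at 8 h lie within -0.5 and 0.5.

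Between 4 h and 8 h no member passed the test in TMD8 with either form. In the limma fit 0 of 28 were called under YK-S, where 0.0436% of all features were, and 0 of 28 under YK-R, where 0.116% were. At an unadjusted p under 0.05 there were 1 and 0 members, against 1045 and 1912 of all 20625 features. The SRM arrays listed above were all lower at 8 h than at 4 h with each form, and 8 h minus 4 h was -0.55 on the log2 scale (SE 0.25, adjusted p = 0.974) under YK-S and -0.24 under YK-R. With YK-S, BYSL, CAD and ODC1 also had all 8 h arrays below all 4 h arrays, with differences of -0.24, -0.21 and -0.09. That is 4 of 28 members under YK-S against 10.2% of all features, and 1 of 28 under YK-R against 14% of all features. BYSL is a factor of small subunit assembly.

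MYC itself is no member. It read 9.96 ± 0.15 (SD, n = 3) under YK-S and 9.80 ± 0.18 under YK-R at 4 h in TMD8, and 10.77 ± 0.51 and 10.94 ± 0.49 at 8 h. The difference with time was 0.81 under YK-S and 1.15 under YK-R (adjusted p = 0.794 and 0.153), so it did not pass. In U2932 the MYC group means lay between 7.63 and 9.07 by the signal table's names and between 7.33 and 9.08 by the value table's names. By the value table's names 8 h minus 4 h passed in every treatment, DMSO included: -1.30 with DMSO, -1.54 under YK-S and -0.90 under YK-R (adjusted p = 0.0265, 0.00619 and 0.0434). With the signal table's names the same differences were -0.35, -1.38 and -1.22, and none passed (adjusted p = 0.689, 0.226 and 0.239).

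In U2932 no member passed the test for either form against DMSO. By the signal table's names limma called 0 of 28 for YK-S at 4 h and at 8 h, where 0% of all features were called. It called 0 of 28 for YK-R at 4 h, where 1.92% of all features were called, and 0 of 28 for YK-R at 8 h, where 0% were. At an unadjusted p under 0.05 there were 2, 1, 5 and 0 members, in that order, against 3431, 455, 4921 and 93 of all 20625 features. By the value table's names 0 of 28 were called in all 4 comparisons, where 0% of all features were. There 4, 0, 9 and 0 members had an unadjusted p under 0.05, against 1633, 149, 3228 and 212 features. YK-S and YK-R share the DMSO arrays of their time, so their differences are not independent. The test was weaker here than in TMD8: on simulated data it recovered 20% of features that differed by 1 on the log2 scale for YK-S at 8 h and 76% of those that differed by 2. Counts of 0 also depended on 1 array, since without DMSO at 4 h, replicate 3, the dimmest array, 3 members were called higher under YK-S and 5 under YK-R at 4 h, among 2565 and 5104 features in all. Median scaling moved the median of all features by 0.46 for YK-S at 4 h and by -0.11 at 8 h, and called 0 members.

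TSR1 and UTP20, both factors of the small subunit, showed the widest differences from DMSO at 4 h by the signal table's names. TSR1 read 8.15, 5.24 and 8.36 on the DMSO arrays, 8.48, 8.60 and 8.49 under YK-S and 8.48, 8.40 and 8.51 under YK-R. All 6 treated arrays lay above all 3 DMSO arrays, of which replicate 2 stood far below the others. The difference was 1.27 on the log2 scale (SE 0.55, adjusted p = 0.274) for YK-S and 1.21 for YK-R (adjusted p = 0.202). Without DMSO replicate 3 it was 1.83, adjusted p = 0.0455 for YK-S, and without replicate 2 it was 0.27, adjusted p = 0.764. TSR1 by the value table's names was 0.05 for YK-S and -1.13 for YK-R, with overlapping arrays. UTP20 read 4.86, 5.35 and 5.22 with DMSO, 7.46, 5.29 and 5.82 under YK-S and 6.46, 6.93 and 6.93 under YK-R. The 3 YK-R arrays lay above DMSO and the YK-S arrays overlapped it. YK-R minus DMSO was 1.63 on the log2 scale (SE 0.49, adjusted p = 0.0852), the lowest adjusted p of any member in these comparisons, and 1.67, adjusted p = 0.0425 without DMSO replicate 3. One fit over all 30 arrays also called it (adjusted p = 0.0181). UTP20 by the value table's names was 1.004 on the log2 scale (SE 0.51, adjusted p = 0.35) with overlapping arrays. A further probe of UTP20 was above background on 0 of 18 U2932 arrays.

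At 4 h non-overlapping arrays were found by the signal table's names for 3 of 28 members under YK-S (12.3% of all features) and for 6 of 28 under YK-R (18% of all features). WDR74, a factor of large subunit maturation, read 7.75, 8.28 and 7.57 with DMSO and 7.37, 7.52 and 7.17 under YK-R. All YK-R arrays lay lower, and YK-R minus DMSO was -0.51 on the log2 scale (SE 0.23, adjusted p = 0.2). PA2G4, a growth-regulated protein found with ribosomal particles, likewise lay lower on all YK-R arrays, at -0.46 on the log2 scale (SE 0.24, adjusted p = 0.257). The value table's names turned WDR74 round to 0.60 on the log2 scale (SE 0.25, adjusted p = 0.275). DDX21, a nucleolar RNA helicase that works in RNA polymerase I transcription, read 10.35, 10.07 and 10.33 with DMSO, 10.53, 10.57 and 10.76 under YK-S and 10.59, 10.54 and 10.54 under YK-R. Both forms lay above DMSO on every array, by 0.37 and 0.31. DDX21 by the value table's names differed by 0.11 and -0.20, with overlap.

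The MYC target enzymes depended on the names at 4 h. By the signal table's names SRM read 9.21, 9.22 and 9.79 with DMSO, 8.33, 9.46 and 8.63 under YK-S and 9.32, 8.03 and 8.40 under YK-R. The groups overlapped, under YK-S minus DMSO at -0.60 on the log2 scale (SE 0.37, adjusted p = 0.4) and YK-R minus DMSO at -0.83. For the value table's names the lowest, middle and highest SRM arrays were 9.21, 9.32 and 9.46 with DMSO and 8.03, 8.40 and 8.63 under YK-S. The YK-S arrays then all lay lower, at -0.98 on the log2 scale (SE 0.26, adjusted p = 0.331) relative to DMSO. CAD read 8.37, 6.62 and 8.74 with DMSO, 7.84, 8.20 and 7.87 under YK-S and 8.000, 7.53 and 7.37 under YK-R by the signal table's names. The DMSO arrays spanned the treated ones, and the differences were 0.06 and -0.28. CAD by the value table's names lay below DMSO on every array with both forms, at -0.60 on the log2 scale (SE 0.28, adjusted p = 0.63) under YK-S and -0.77 on the log2 scale (SE 0.28, adjusted p = 0.219) under YK-R. ODC1 read 12.40, 12.29 and 12.59 with DMSO, 12.20, 12.51 and 12.45 under YK-S and 12.31, 12.12 and 12.21 under YK-R. Its differences were -0.04 and -0.21 by the signal table's names and -0.15 and -0.14 by the value table's names.

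GRWD1 and RRP12 by the value table's names joined CAD in lying below DMSO on every array at 4 h with each form. GRWD1, a histone-binding protein linked to large subunit assembly, differed by -0.51 under YK-S and -0.50 under YK-R. RRP12, which acts in export of both subunits, differed by -0.49 and -0.76 on the log2 scale (SE 0.23, adjusted p = 0.159). PPAN, a large subunit factor whose gene is also read through into its neighbour P2RY11, differed by -0.54 and -1.16 on the log2 scale (SE 0.34, adjusted p = 0.142). PES1 lay above DMSO with both, by 0.46 and 0.97 on the log2 scale (SE 0.29, adjusted p = 0.152). In all 9 of 28 members had non-overlapping arrays for YK-S (18.6% of all features) and 7 of 28 for YK-R (14.8% of all features). The member median for YK-R at 4 h was -0.37 by these names, against -0.02 for all features, and 0.04 by the signal table's names, against -0.02.

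**Figure D3:**
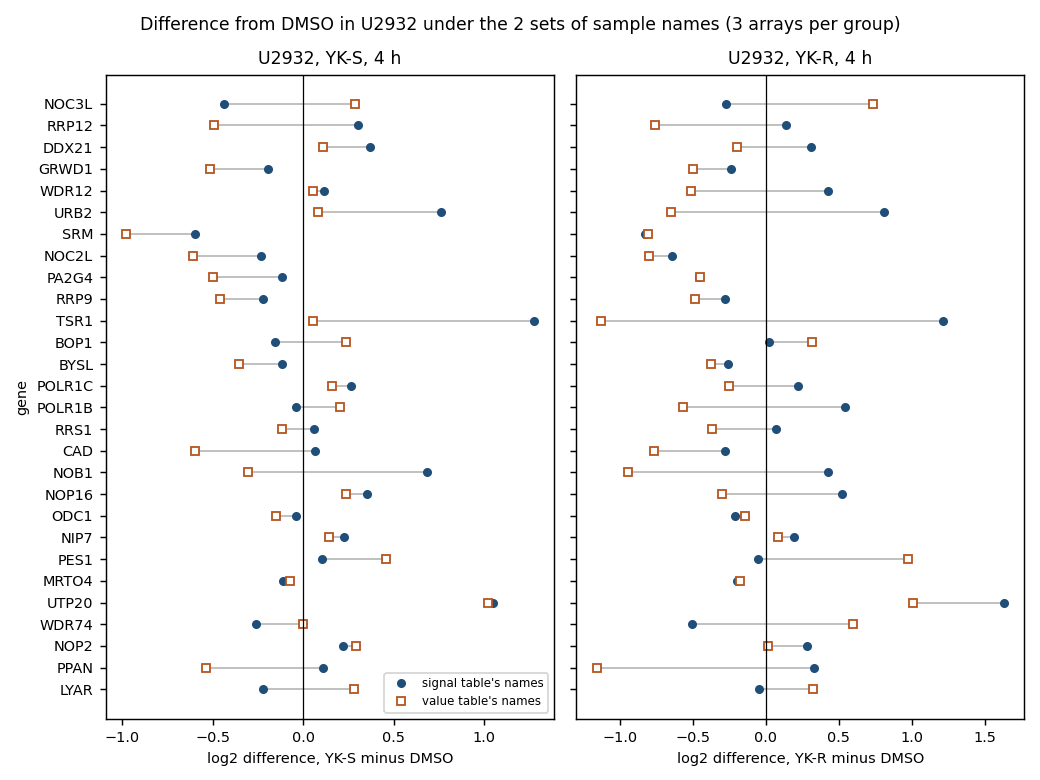
Each row is 1 of the 28 genes in U2932 at 4 h, with the log2 difference from DMSO for YK-S (left) and YK-R (right) by the signal table's names (filled) and by the value table's names (open), joined by a grey line (3 arrays per group). For some genes the markers lie on opposite sides of 0, as for WDR74 under YK-R at -0.51 and 0.60, and no difference shown passed the test.

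At 8 h RRP9 read 5.03, 5.36 and 5.02 with DMSO, 7.03, 5.41 and 5.83 under YK-S and 6.11, 5.49 and 5.59 under YK-R. Its treated arrays lay above DMSO, by 0.95 on the log2 scale (SE 0.51, adjusted p = 1) and 0.59, with the dim YK-S replicate 1 the highest, and without that array YK-S minus DMSO was 0.48. RRP12 read 7.68, 7.63 and 7.68 with DMSO, 7.56, 7.63 and 7.57 under YK-S and 7.41, 7.62 and 7.49 under YK-R. The treated arrays were all lower, the nearest by less than 0.01, with differences of -0.08 and -0.16 (adjusted p = 1 and 1). Arrays of both genes overlapped when named as in the value table, where RRP9 differed from DMSO under YK-S and YK-R by 0.46 and 0.26 and RRP12 by -0.01 and -0.01. Non-overlap was seen for 4 of 28 members under YK-S (11.7% of all features) and 5 of 28 under YK-R (8.77% of all features). It was seen by the value table's names for 2 of 28 (8.14% of all features) and 4 of 28 (9.81% of all features). CAD at 8 h read 7.81, 8.32 and 8.22 with DMSO, 8.62, 8.44 and 8.28 under YK-S and 8.17, 8.47 and 7.95 under YK-R, and the 3 groups overlapped, with YK-S and YK-R minus DMSO at 0.33 and 0.08. With the value table's names CAD under YK-R lay above DMSO on every array, by 0.36 (adjusted p = 1), and YK-S differed by 0.15. SRM at 8 h read 8.02, 9.16 and 9.20 with DMSO, 9.31, 9.20 and 9.35 under YK-S and 9.24, 9.44 and 9.27 under YK-R. DMSO replicate 1 was the low array here, and the differences were 0.49 and 0.52 (adjusted p = 1 for each). They were -0.01 and 0.22 by the value table's names, with overlap.

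For the RNA polymerase I subunits in U2932, POLR1B read 6.74, 5.91 and 4.49 with DMSO, 5.09, 6.13 and 5.79 under YK-S and 5.53, 6.67 and 6.55 under YK-R at 4 h. At 8 h it read 5.71, 6.80 and 6.61, 6.41, 6.74 and 6.85 and 7.08, 6.69 and 6.64 in the same order. The groups overlapped, also by the value table's names, and 2 of the 18 arrays, both dim, were not above background. POLR1C at 4 h read 9.85, 9.16 and 10.32 with DMSO, 9.90, 10.03 and 10.19 under YK-S and 9.91, 10.07 and 10 under YK-R. At 8 h it read 9.96, 10.16 and 10.30, 9.57, 10.35 and 10.15 and 10.20, 10.51 and 10.01. Overlap was seen again, and DMSO replicate 2 at 4 h was the lowest array by these names. By the value table's names that array is a YK-R sample, and at 8 h POLR1C under YK-R lay above DMSO on every array, by 0.29 (adjusted p = 1). NOP16 at 4 h read 8.82, 8.14 and 9.99 with DMSO, 9.50, 9.14 and 9.37 under YK-S and 9.61, 9.54 and 9.37 under YK-R. At 8 h it read 9.02, 9.44 and 9.45, 9.08, 9.55 and 9.60 and 9.30, 9.14 and 9.37. The DMSO arrays at 4 h held both the lowest and the highest value of NOP16 in U2932 by these names, and by the value table's names both belong to YK-R, the lowest at 4 h and the highest at 8 h. Treated and DMSO arrays of NOP16 overlapped by either set of names. ODC1 at 8 h read 12.32, 12.33 and 12.45 with DMSO, 12.35, 12.33 and 12.44 under YK-S and 12.49, 12.32 and 12.38 under YK-R, all within the span of the 4 h arrays.

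The mirror-image forms were also compared with each other in U2932. limma called 0 of 28 members at 4 h and at 8 h under both sets of names, and 0% of all features. At an unadjusted p under 0.05 there were 0 and 1 members by the signal table's names, against 944 and 206 of 20625 features. By the value table's names there were 2 and 0 members, against 2342 and 373 features. WDR12 read 9.22, 9.21 and 9.19 under YK-S and 9.64, 9.45 and 9.47 under YK-R at 4 h. YK-S was the lower on every array, at -0.31 on the log2 scale (SE 0.34, adjusted p = 1), but the value table's names gave 0.57 and median scaling 1.03, which shifted the median over all features by 0.64. All YK-R arrays and only replicate 1 of YK-S were dim in that comparison. DDX21 at 8 h read 11.11, 10.62 and 10.56 under YK-S and 10.34, 10.26 and 10.35 under YK-R. YK-S was higher on every array, by 0.45 on the log2 scale (SE 0.17, adjusted p = 1), and the dim replicate 1 was the highest. With the value table's names the difference was 0.24 and the arrays overlapped. Intervals were wide: 18 of 28 at 4 h and 20 of 28 at 8 h lay within -1 and 1. For the other members a log2 difference of 1 in size remained inside the interval. Non-overlap occurred for 1 of 28 members at 4 h (10.1% of all features) and 2 of 28 at 8 h (11.3% of all features), and by the value table's names for 3 of 28 (10.1%) and 2 of 28 (7.6%). Whether the difference between the forms itself differed between the lines was tested over all 30 arrays, and 0 of 28 members passed at 4 h or 8 h under either set of names, with 0% of all features called.

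Between 4 h and 8 h in U2932, members passed by the value table's names but not by the signal table's names with quantile normalization and 1 fit of the 18 arrays. By the signal table's names 0 of 28 passed with DMSO, YK-S or YK-R, where 0.00485%, 0% and 0% of all features passed. At an unadjusted p under 0.05 there were 0, 1 and 3 members, against 2768, 2097 and 2514 of all 20625 features. By the value table's names 0 of 28 passed with DMSO (0.136% of all features), 1 under YK-S (1.03%) and 1 under YK-R (2.16%). NIP7, a large subunit factor that binds the precursor RNA, fell under YK-S from 10.39, 10.52 and 10.61 at 4 h to 9.75, 9.80 and 9.84 at 8 h by those names, each time in order of value. The difference was -0.71 on the log2 scale (SE 0.15, adjusted p = 0.0325). It was -0.55 with DMSO and -0.35 under YK-R by these names, again with every 8 h array lower (adjusted p = 0.197 and 0.205). By the signal table's names NIP7 read 10.51, 10.38 and 10.61 and 9.75, 9.98 and 9.89, again with every 8 h array lower, and the difference of -0.63 on the log2 scale (SE 0.19, adjusted p = 0.254) did not pass. WDR12 rose under YK-R from 8.12, 9.06 and 9.22 at 4 h to 9.66, 9.93 and 10.06 at 8 h by the value table's names, by 1.08 on the log2 scale (SE 0.25, adjusted p = 0.0363). Its 8 h arrays were also all higher with DMSO, by 0.46, and under YK-S, by 0.39 (adjusted p = 0.686 and 0.568). Whether the change with time differed between treatments was not tested for either gene. By the signal table's names its values were 9.64, 9.45 and 9.47 and 9.70, 9.66 and 9.72, a difference of 0.18 on the log2 scale (SE 0.34, adjusted p = 0.878). The deposited log2 values gave NIP7 at -0.68, adjusted p = 0.00105 and WDR12 at 0.95, adjusted p = 0.00923. Without the dim arrays, by the value table's names, NIP7 was -0.80, adjusted p = 0.0497 and WDR12 0.73, adjusted p = 0.0629. Median scaling called 19 members higher at 8 h with DMSO, 0 under YK-S and 26 under YK-R, where it moved the median of all features by 0.65, 0.10 and 0.85. The share of all features it called is not given here, so these counts do not set the members apart. Non-overlap between times was seen by the signal table's names for 3 of 28 members with DMSO (12.3% of all features), 5 under YK-S (19.4%) and 9 under YK-R (33.4%). Under the value table's names it was seen for 6 (25%), 8 (24.1%) and 10 (17.3%). Brightness differed with time in these groups, and its part was not tested.

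Members were called between the lines in all 4 comparisons. With the same compound and time, limma called 11 of 28 under YK-S at 4 h, 6 higher and 5 lower in TMD8, where 29.2% of all features were called. For YK-R at 4 h it called 14, 8 higher and 6 lower (33.5% of all features). At 8 h it called 7 under YK-S, 4 higher and 3 lower (24% of all features), and 10 under YK-R, 5 higher and 5 lower (27.5% of all features). Whether the members were called more often than other features was not tested. By the value table's names the counts were 14 (31.6%), 19 (43%), 11 (24.6%) and 12 (29.1%). The direction rests on the scaling: scaling to a common median moved the median of all features by 0.58, 1.30, 0.50 and 0.33 toward TMD8, in the same order, and then called 15, 26, 7 and 5 members, all higher in TMD8 and 0 lower. Without the dim arrays it called 11 higher and 1 lower under YK-S at 4 h, 12 and 0 under YK-S at 8 h, and 11 and 1 under YK-R at 8 h. Shares of all features called under median scaling are not given here. These counts therefore do not show whether members moved more than other features.

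DDX21, GRWD1, RRP12 and NOC3L were called higher in TMD8 in all 4 comparisons under both sets of names, and they were the only members of which that holds. NOC3L, a factor of early large subunit assembly, ran from 9.74 to 10.35 (median 9.98) on the 12 TMD8 arrays and from 7.85 to 9.53 (median 9.004) on the 18 U2932 arrays. The lines did not overlap, and TMD8 was higher by 1.50 on the log2 scale (SE 0.27, adjusted p = 0.000133) under YK-S and 1.26 on the log2 scale (SE 0.27, adjusted p = 0.00074) under YK-R at 4 h. DDX21 ran from 11.23 to 11.79 (median 11.39) on the 12 TMD8 arrays and from 10.07 to 11.11 (median 10.49) on the 18 U2932 arrays. Again no array overlapped, and TMD8 was higher by 0.86 on the log2 scale (SE 0.17, adjusted p = 0.000299) under YK-S at 4 h, 1.06 on the log2 scale (SE 0.17, adjusted p = 2.2e-05) under YK-R at 4 h and 1.06 on the log2 scale (SE 0.17, adjusted p = 2.72e-05) under YK-R at 8 h. RRP12 ran from 8.28 to 8.82 (median 8.50) on the 12 TMD8 arrays and from 6.52 to 8.001 (median 7.60) on the 18 U2932 arrays. GRWD1 ran from 9.87 to 10.55 (median 10.34) on the 12 TMD8 arrays and from 9.05 to 9.87 (median 9.37) on the 18 U2932 arrays. Both were higher on every TMD8 array, GRWD1 by less than 0.01 at the nearest pair, with RRP12 at 1.15 on the log2 scale (SE 0.24, adjusted p = 0.000517) and GRWD1 at 1.08 on the log2 scale (SE 0.22, adjusted p = 0.0005) in their largest comparison by the signal table's names. NOC3L and RRP12 also passed under median scaling in all 4 comparisons, at 1.49 to 4.05 and 1.68 to 3.71, and DDX21 and GRWD1 did in the 3 comparisons each for which it was run. Median scaling of all arrays moved the median of all features toward TMD8 and called no member lower there. These passes are therefore no separate support for the direction. At 8 h single arrays decided the calls, though not the direction. With YK-S, GRWD1 was 0.66, adjusted p = 0.0641 and RRP12 0.71, adjusted p = 0.0751 without TMD8 replicate 1. NOC3L was 0.76, adjusted p = 0.0865 without TMD8 replicate 2 and 0.76, adjusted p = 0.0827 without U2932 replicate 1. DDX21 was 0.51, adjusted p = 0.0647 without U2932 replicate 2 and 0.48, adjusted p = 0.0796 without U2932 replicate 3. With YK-R, NOC3L was 0.82, adjusted p = 0.0658 without TMD8 replicate 1 and 0.84, adjusted p = 0.0564 without U2932 replicate 2.

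LYAR, a nucleolar zinc finger protein of cell growth, showed the largest difference of any member toward U2932 on the quantile-normalized scale. It ran from 8.98 to 10.03 (median 9.54) on the 12 TMD8 arrays and from 10.71 to 11.64 (median 11.13) on the 18 U2932 arrays. The highest TMD8 array lay below the lowest U2932 array, and TMD8 minus U2932 was -1.59 on the log2 scale (SE 0.22, adjusted p = 4.08e-06) under YK-S and -1.74 on the log2 scale (SE 0.22, adjusted p = 9.15e-07) under YK-R at 4 h. At 8 h the differences were -1.61 on the log2 scale (SE 0.22, adjusted p = 3.9e-06) and -1.69 on the log2 scale (SE 0.22, adjusted p = 1.73e-06). A further LYAR probe gave -1.67 over all arrays, also without overlap. Under median scaling LYAR was not called in any of the 4 comparisons: it was -0.34 under YK-S and 0.93 under YK-R at 4 h, where the median of all features moved by 0.58 and 1.30, and -0.64 and -1.15 at 8 h. Without the dim arrays median scaling gave -1.02, adjusted p = 0.00739 under YK-S at 4 h and -1.15, adjusted p = 0.000932 under YK-R at 8 h. MRTO4, a large subunit factor related to a stalk protein of the ribosome, ran from 7.80 to 8.51 (median 8.14) on the 12 TMD8 arrays and from 8.55 to 9.29 (median 8.79) on the 18 U2932 arrays. It too was called lower in TMD8 in all 4 comparisons under both sets of names, and was -0.82 on the log2 scale (SE 0.18, adjusted p = 0.00114) under YK-R at 8 h, but median scaling gave 0.90 under YK-S at 4 h and 0.41 under YK-S at 8 h. With YK-S at 4 h its call was also lost without either TMD8 replicate 1 or 2, or without U2932 replicate 2 or 3, at -0.47, -0.42, -0.46 and -0.44.

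The metabolic enzymes divided between the lines. ODC1 ran from 11.88 to 12.07 (median 11.95) on the 12 TMD8 arrays and from 12.12 to 12.59 (median 12.34) on the 18 U2932 arrays. It was lower on every TMD8 array, and under YK-S at 8 h the difference was -0.45 on the log2 scale (SE 0.13, adjusted p = 0.0107), which median scaling turned to 0.33. SRM ran from 8.61 to 10.14 (median 9.83) on the 12 TMD8 arrays and from 8.02 to 9.79 (median 9.22) on the 18 U2932 arrays, with overlap. SRM was higher in TMD8 by 1.13 on the log2 scale (SE 0.34, adjusted p = 0.0122) under YK-S and 1.36 on the log2 scale (SE 0.34, adjusted p = 0.00248) under YK-R at 4 h, and by 0.10 and 0.39 at 8 h, which did not pass. Without U2932 YK-S replicate 1 at 4 h the SRM value was 0.89, adjusted p = 0.0824. CAD ran from 7.56 to 7.97 (median 7.80) on the 12 TMD8 arrays and from 6.62 to 8.74 (median 8.19) on the 18 U2932 arrays, and its difference passed in none of the 4 comparisons by the signal table's names. With the value table's names it was lower in TMD8 at 8 h, at -0.65 on the log2 scale (SE 0.23, adjusted p = 0.0385) under YK-S and -0.72 on the log2 scale (SE 0.23, adjusted p = 0.0183) under YK-R.

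Further large subunit factors went both ways. WDR12 ran from 10.26 to 10.54 (median 10.38) on the 12 TMD8 arrays and from 8.12 to 10.06 (median 9.65) on the 18 U2932 arrays, without overlap, and was called higher in TMD8 under YK-S at 4 h (1.17, adjusted p = 0.0017) and under YK-R at both times. The call under YK-R at 8 h was lost without any 1 of the 6 arrays compared, at 0.69 to 0.77 (adjusted p = 0.0776 to 0.128). A further WDR12 probe gave 0.69 over all arrays, also without overlap. URB2 ran from 9.10 to 9.48 (median 9.30) on the 12 TMD8 arrays and from 6.61 to 8.99 (median 8.60) on the 18 U2932 arrays, with no overlap either. Yet it passed in none of the 4 comparisons by the signal table's names and in 1 by the value table's names (YK-R at 4 h, 1.41, adjusted p = 0.000691). A further URB2 probe, above background on every array, gave 0.39 over all arrays, with overlap. NOP2 was lower in TMD8 on the quantile-normalized scale, at -0.86 on the log2 scale (SE 0.22, adjusted p = 0.00431) under YK-S and -0.98 on the log2 scale (SE 0.22, adjusted p = 0.00118) under YK-R at 4 h, where median scaling gave 0.37 and 1.66. Its other probes differed by -0.15, -0.34 and -0.12 over all arrays against -0.80 for the probe used, and the mean of its probes was not called. NIP7 was lower in TMD8, at -0.74 and -0.81 at 4 h, where median scaling gave 0.52 and 1.91. With YK-R at 4 h, UTP20 at -1.71 on the log2 scale (SE 0.44, adjusted p = 0.00367) and PPAN at -1.11 on the log2 scale (SE 0.41, adjusted p = 0.037) were lower, which median scaling turned to 0.18 and 1.53. The next UTP20 probe went the other way, with TMD8 higher by 0.63 over all arrays, with overlap. It was above background on 11 of 12 TMD8 and 0 of 18 U2932 arrays. It therefore gives only a bound in U2932 and no size of the difference, and the direction of UTP20 rests on the probe used. PPAN was not called without TMD8 replicate 1 or 2 or U2932 replicate 1 or 2 (-1.02, -1.06, -0.95 and -1.11). NOC2L, a partner of NOC3L, was higher under YK-R at 4 h by 1.09 on the log2 scale (SE 0.36, adjusted p = 0.0219), and by 1.005, 1.10 and 0.64 without TMD8 replicate 2, TMD8 replicate 3 or U2932 replicate 3, each no longer called. PA2G4 was higher under YK-R at 4 h by 0.77 on the log2 scale (SE 0.23, adjusted p = 0.0106). WDR74 was lower under YK-R at 8 h, at -1.21 on the log2 scale (SE 0.22, adjusted p = 0.000109), and -0.52, adjusted p = 0.369 under median scaling. In all, 21 members were called in at least 1 of the 8 comparisons under the 2 sets of names and 7 in none. The share of all features called at least once was not counted, and single comparisons called 24% to 43% of all features. The 7 were POLR1B, POLR1C, NOP16, BOP1, RRS1, BYSL and NOB1, the last a nuclease that makes the final cut of the small subunit RNA.

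The contrast of lines can be described without any sample names. The lines did not overlap for 9 of 28 members, against 13.6% of all features. All 12 TMD8 arrays lay above all 18 U2932 arrays for 6 of 28 members, against 8.37% of all features, and below them for 3 of 28, against 5.26%. The 6 were DDX21, GRWD1, RRP12, NOC3L, WDR12 and URB2, and the 3 were LYAR, MRTO4 and ODC1, on the quantile-normalized scale. The further probe of URB2 overlapped between the lines. Against the 10 brighter U2932 arrays the counts were 6 and 5, as NOP2 and PPAN joined the lower set. The counts over all features rose as well, to 2534 higher and 2520 lower of 20625. The median of TMD8 minus U2932 was -0.13 over the members and 0.01 over all features, and -0.23 and -0.02 against the brighter arrays. Spread within groups was also wider in U2932: the median SD of the members was 0.23 in TMD8, and it was 0.38 in U2932 by the signal table's names and 0.30 by the value table's names. By these names 24 and 19 of 28 members had the larger SD in U2932.

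**Figure D4:**
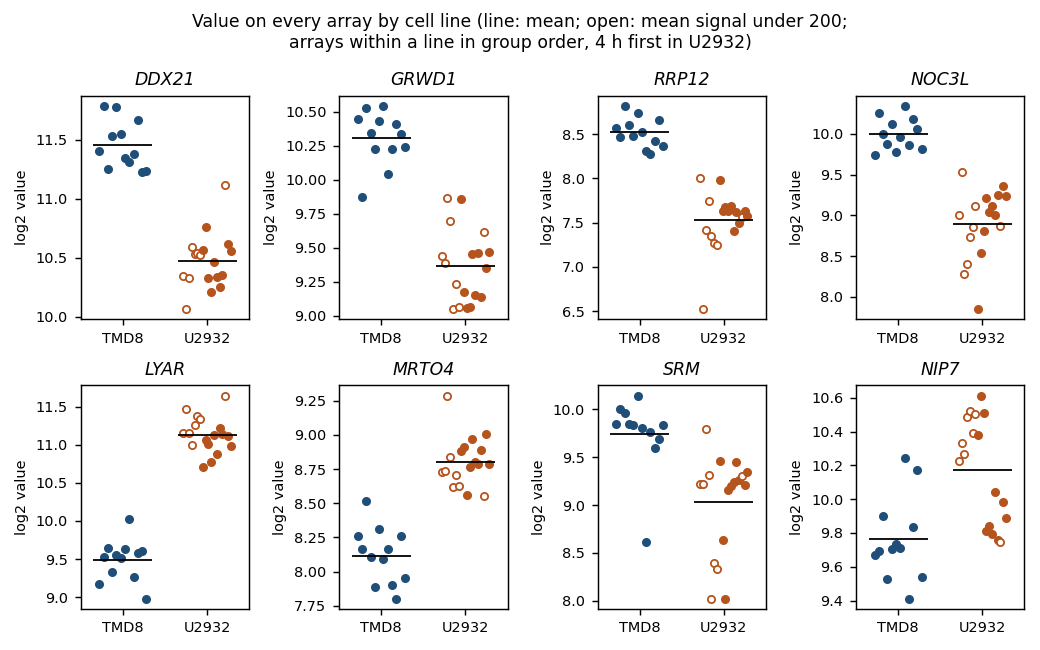
Each panel shows the log2 value of 1 gene on the 12 TMD8 and 18 U2932 arrays, with the mean as a line and dim arrays (mean signal under 200) open. DDX21, GRWD1, RRP12 and NOC3L lie higher on every TMD8 array and LYAR and MRTO4 lower, the last 2 on this quantile-normalized scale. Median scaling turned LYAR under YK-R at 4 h and MRTO4 under YK-S. It left LYAR lower under YK-S at 4 h and with both forms at 8 h, but not called. SRM overlaps, and 7 of the 8 open circles of NIP7 lie at 10.23 or higher.

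Promoter sequence was available in RefSeq tables (GRCh38.p14, from 250 bases before to 50 after the start) for 28 of the 32 listed genes. CACGTG, the E-box that MYC and MAX bind, reads the same on both strands, and it lay in the window of 11 of the 24 tested genes with one (45.8%), against 8.77% of 27305 genes. The ETS motif was searched as CCGGAAGT or, on the other strand, ACTTCCGG, and lay in 8 of 24 (33.3%), against 4.95% of genes. The list was drawn up with MYC targets in it, and the 27305 genes were not limited to those expressed here. The E-box and ETS shares therefore describe the list and were not tested. The motifs do not overlap each other, and DDX21 and NOC3L held both, DDX21 in windows of different starts. Of the members called higher in TMD8 throughout, DDX21, GRWD1 and NOC3L have a window, and each holds the ETS motif, printed in capitals within 60 bases 5′ to 3′ on the gene's strand. SRM is printed for its E-box, in capitals likewise.
DDX21, chr10:68956084-68956143, plus strand: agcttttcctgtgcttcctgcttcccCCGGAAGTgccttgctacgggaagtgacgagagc
GRWD1, chr19:48445923-48445982, plus strand: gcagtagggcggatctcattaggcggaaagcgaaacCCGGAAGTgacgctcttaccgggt
NOC3L, chr10:94362955-94363014, minus strand: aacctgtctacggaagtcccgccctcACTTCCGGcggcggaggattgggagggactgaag
SRM, chr1:11060185-11060244, minus strand: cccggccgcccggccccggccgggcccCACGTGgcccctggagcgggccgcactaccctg
Relative to the start the motif begins at -60 in DDX21, -24 in GRWD1, -49 in NOC3L and -199 in SRM. NOC2L, WDR74, PPAN, POLR1B and POLR1C held the ETS motif as well. Of these, on the quantile-normalized scale, NOC2L was called higher in TMD8 and WDR74 and PPAN lower, and the polymerase subunits were not called. WDR12, SRM and PA2G4, called higher in TMD8 in some comparisons, held no ETS motif. The E-box lay in LYAR, MRTO4 and ODC1, lower on every TMD8 array on that scale, as well as in DDX21, NOC3L and SRM. It also lay in NOP2 and UTP20, called lower in TMD8 in some comparisons, and in RRP9, PES1 and BYSL. By the signal table's names none of RRP9, PES1 and BYSL was called between the lines. A match is a run of letters and no measured binding.

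Few other genes of the pathway were called with treatment or time. In TMD8, 0 of 13 other genes of RNA polymerase I, 0 of 37 of the small subunit, 0 of 43 of the large subunit and 0 of 39 MYC targets outside the nucleolus were called between the forms or between times. In U2932, POLR1G, a subunit of RNA polymerase I, rose by 1.45 on the log2 scale (SE 0.27, adjusted p = 0.0204) and EIF4E, the cap-binding translation factor, by 2.02 on the log2 scale (SE 0.44, adjusted p = 0.0354) under YK-R against DMSO at 4 h by the signal table's names, and neither was called by the value table's names. With YK-S at 8 h against 4 h by the value table's names, RIOK1 and PNO1, factors of small subunit maturation, fell by 1.24 and by 0.92 on the log2 scale (adjusted p = 0.00777 and 0.045). With YK-R, DDX54, CCT3 and EMG1 rose by 2.11, 1.06 and 1.03 and RIOK1 and PNO1 fell by 1.03 and by 0.97.

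Between the lines many genes of these lists were called. With YK-R at 8 h, 5 of 37 small subunit factors were higher and 9 lower in TMD8, 3 and 12 of 43 large subunit factors, 7 and 4 of 39 MYC targets and 0 and 0 of 13 RNA polymerase I genes, against 14.1% higher and 13.4% lower of all features. CCND2, a cyclin and MYC target, was 6.89 to 7.53 higher in TMD8 over the 4 comparisons. CCT5, a chaperonin subunit, was higher by 1.78, 2.69 and 1.60 under YK-S at 4 h, YK-R at 4 h and YK-S at 8 h. HK2, a hexokinase, was higher by 1.51 under YK-S at 4 h and 1.36 under YK-R at 8 h, and UBTF, a transcription factor of RNA polymerase I, by 1.79 under YK-R at 4 h. MYC was higher by 0.95 under YK-R at 4 h (adjusted p = 0.0369), and by 3.07 and 3.31 at 8 h (adjusted p = 1.66e-07 and 4.36e-08). MXD4, which opposes MYC at E-boxes, was -3.13 to -2.78 and RRP1, a large subunit factor, -2.07 to -1.68 over the 4 comparisons. MXD1 was -1.72 under YK-S at 4 h, NOL12 -2.04 and -1.56 under YK-R at 4 h and 8 h, and UTP11 -1.26 under YK-S at 8 h. All these values are from the quantile-normalized arrays, and other scalings were not run for genes outside the 28 members.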

How the data were processed

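RNA was extracted with RNeasy columns and made into biotin-labelled cRNA with the Ambion TotalPrep kit, per the labels' protocols. The deposited signal table holds linear bead intensity values that the authors read with GenomeStudio (version not given), per the submitters' processing notes, and tests on the table found no normalization between arrays. The deposited value table holds log2 values by the authors whose base and normalization are not given in the sources used here. It looks quantile-normalized within each line, with medians of 4.85 in TMD8 and 6.42 in U2932, and served as an alternative.

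The signal table has no detection p-values or control probes. Background was therefore taken per array from the mode of the log2 signals and the spread below it, corrected by normexp with an offset of 16, and the 30 arrays were quantile-normalized. A probe was above background at a detection p under 0.05, and was kept if so on all arrays of at least 1 group (25382 of 47231 probes). Of all probes 30113 had 1 gene symbol, 8 several and 17110 none. The brightest kept probe of each gene and all unnamed probes gave 20625 features. limma 3.58.1 in R 4.3.3 (lmFit, eBayes) was fitted to the 12 TMD8 arrays, the 18 U2932 arrays, or all 30 for lines, with Benjamini-Hochberg adjustment over all features and a threshold of 0.05. Line and any hybridisation batch cannot be told apart. Detected shares of probes were 46.6% to 56.1% in TMD8 and 25.2% to 50.5% in U2932, and the number of arrays limits the precision. Intervals are 95%. The test was checked on simulated data with 100 features changed per fold.

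The members and lists were chosen with earlier results of these data known. Values per array are given for NPM1, NOP16, POLR1B, POLR1C, CAD, ODC1 and SRM, for members called in a treatment or time comparison, and for the largest non-overlapping change each way in each treatment comparison. Between lines the 5 called members of largest difference each way are named, and of the other lists the 3 called genes each way. Alternatives were other background corrections, scalings, filters, fits, sample names, array weights, probes, and leaving out arrays.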

Additional observations from a re-analysis of the deposited data

How the results depend on the processing

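Counts of called members moved as follows, and the cause was not tested. Shares of all features are not given beside these counts. They therefore do not show whether members moved more than other features. Median scaling called 19 (DMSO) and 26 (YK-R) for time in U2932, and 26 and 5 between lines under YK-R at 4 h and 8 h. The deposited values called 1 (DMSO), 1 (YK-S) and 5 (YK-R) for time in U2932. The value table's names called 1 and 1 for time (YK-S, YK-R) and 11 between lines under YK-S at 8 h. One fit of 30 arrays called 1 for YK-R against DMSO at 4 h and 1 for YK-R time. Array weights called 1 for YK-R against DMSO at 4 h, 4 and 2 for time (YK-S, YK-R), and 16 and 17 between lines at 8 h. Without dim arrays 13 were called between lines under YK-S at 8 h, and 12 with median scaling as well. The value table's names without dim arrays called 3 for YK-R against DMSO at 4 h, 1, 2 and 4 for time, and 15 and 17 between lines at 8 h. With array weights those names called 1 and 1 against DMSO at 4 h, 3, 4 and 2 for time, and 15 and 19 between lines at 8 h. Leaving out 1 array gave 0 to 3 for YK-S and 0 to 5 for YK-R against DMSO at 4 h, and between lines 9 to 11, 11 to 13, 5 to 8 and 7 to 9.

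Directions turned under median scaling for CAD in TMD8 (0.081), for WDR12 between forms in U2932 at 4 h (1.03), and between lines for NOP2 (0.37), NIP7 (0.52), MRTO4 (0.90) and ODC1 (0.80) under YK-S at 4 h, for LYAR (0.93), UTP20 (0.18), PPAN (1.53), NOP2 (1.66) and NIP7 (1.91) under YK-R at 4 h, and for MRTO4 (0.41) and ODC1 (0.33) under YK-S at 8 h. In U2932 the deposited values turned WDR74 (0.38) and WDR12 (0.47), and the value table's names turned them to 0.60 and 0.57. Those names without dim arrays turned TSR1 (-0.12), RRP9 (-0.029 for YK-S and -0.14 for YK-R), WDR74 (0.77), RRP12 (0.062), WDR12 (0.13) and DDX21 (-0.037), and with array weights WDR74 (0.58), RRP9 (-0.067), RRP12 (0.050) and WDR12 (0.31). Median scaling without dim arrays turned RRP12 (0.10 for YK-S at 8 h) and ODC1 (0.087 between lines under YK-S at 8 h).

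No paired analysis was possible because the labels give no replicate numbers; those used here follow accession order and pair no samples. Dropping the dim arrays left none in the DMSO and YK-R groups at 4 h, and the deposited values could not be fitted between lines, which they normalize apart. The value table's names combined with dim arrays or weights, and median scaling without dim arrays, were chosen after seeing the data.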
